A study of Mus musculus with 12 samples.

Results

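The genes described here encode the proteins of the cytosolic ribosome. They were taken from the deposited expression table of cultured primary mouse hepatocytes by symbol, as every Rpl or Rps gene with a plain number, Rplp0 to Rplp2 and Rpsa, and without hyphenated pseudogene names or the Rps6k kinases. The rule found 87 of the 36144 gene symbols. Of these, 76 are core ribosomal proteins, 46 of the large and 30 of the small subunit, and 11 are paralogs whose symbols end in l, l1 or al, which are kept apart. The rule reads symbols and no expression values. Rps3a1, Fau and Rack1 make ribosome components but fall outside the rule and are given separately.

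The cells came from a wild-type C57/Bl6J mouse and gave 12 libraries of poly-A RNA, 3 per group in 4 groups. All groups were kept without serum for 16 h. FDMn cells had 6 µM manganese chloride during those 16 h and then 10 µM forskolin, which raises cAMP, with 1 µM dexamethasone, a glucocorticoid, for 5 h. FDI cells had 100 nM insulin for 1 h and then the same forskolin and dexamethasone, FD cells had forskolin and dexamethasone alone, and Mock cells had none of these agents. Manganese and insulin were never given without forskolin and dexamethasone, and they differed in length of exposure, so that agent and exposure cannot be told apart. As the labels name 1 animal and do not separate the replicates by preparation, the p-values measure only how far these samples spread, and that spread may be technical.

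Each ribosomal protein is made from its own gene and nearly all are needed in equal numbers, so these genes are transcribed at high and matched rates in growing and secreting cells such as hepatocytes. Their mRNAs carry a terminal oligopyrimidine (TOP) tract, a C at the cap followed by a run of C and T. Insulin acts through AKT and the kinase complex mTORC1 to promote translation of TOP mRNAs, while the RNA-binding protein LARP1 holds them back when mTORC1 is off. The values below are mRNA levels and do not measure translation.

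The start-site windows are shown because the tract known for this gene family would lie there, though not every window holds one. RefSeq promoters on GRCm38.p6 were available for 64 of the 87 genes, with 76 annotated starts. A C within 5 bases of the start with at least 4 C or T after it, on the sense strand, was found at 42.1% of these starts and at 18.3% of all 32851 starts in the table. A sense run of at least 8 C or T within 25 bases of the start was found at 46.1% of them, against 19.7% of all starts, and on the antisense strand at 7.9% against 21.6%. CTTTCC on the sense strand in the same window was found at 14.5% against 2.5%, and on the antisense strand at 2.6% against 2.3%. In the whole 300 bases, CCGGAAG on either strand was found at 34.2% against 8.9% and TGACGTCA, a palindrome known as the cAMP response element, at 6.6% against 1.8%. CACGTG, the E-box palindrome, was found at 10.5% against 7.2%. These are matches of letters and not shown binding sites. Each line below gives 15 bases before the RefSeq start and 15 from it, 5′ to 3′, with the longest run of C and T in capitals. Rpl7a, Rpl27a and Rps27 were among the core genes called higher with insulin. Rps9 had the lowest change among those called lower with manganese against insulin, and Rpl22l1 is the paralog called lower with manganese. Rps3, which had the highest change with insulin, and Rpl10 have runs of only 3 C or T.
Rpl7a (chr2:26910792-26910821, plus strand): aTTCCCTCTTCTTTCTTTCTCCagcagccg
Rpl27a (chr7:109519180-109519209, plus strand): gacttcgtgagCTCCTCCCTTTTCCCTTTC
Rps27 (chr3:90213634-90213663, minus strand): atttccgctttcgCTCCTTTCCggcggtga
Rps9 (chr7:3704026-3704055, plus strand): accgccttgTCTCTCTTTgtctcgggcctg
Rps6 (chr4:86857353-86857382, minus strand): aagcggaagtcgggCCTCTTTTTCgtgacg
Rpl22l1 (chr3:28805493-28805522, plus strand): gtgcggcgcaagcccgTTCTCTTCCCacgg
Rps3 (chr7:99483695-99483724, minus strand): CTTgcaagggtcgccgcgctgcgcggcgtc
Rpl10 (chrX:74270801-74270830, plus strand): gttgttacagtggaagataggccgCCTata

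In transcript abundance scaled to a fixed total (TPM), 10900 to 11161 genes per library reached 1, the r of replicates over genes was 0.981 to 0.991, and the hepatocyte product albumin ranged from 22527 to 32589 TPM. Of 10 hepatocyte markers, 9 were in the table and all 9 passed the filter. Markers of other liver cells summed to less than those of hepatocytes in every library. The hepatocyte sum is mostly albumin, so this comparison does not measure purity. Of 9 Kupffer cell markers, 4 passed the filter (Cd68, C1qa, C1qb and Marco) and 5 did not (Clec4f, Adgre1, C1qc, Vsig4 and Timd4). The summed Kupffer markers reached 801 ± 43.3 TPM in FDMn, 338 ± 39.2 in FDI, 353 ± 33.0 in FD and 338 ± 4.80 in Mock (SD, n = 3 each). Every FDMn library was above every library of the other groups in this sum. The sum rests mainly on the 4 markers that passed, and which of them carried the difference is not given here. It does not count cells. The summed hepatocyte markers were 32399 to 33136 TPM in FDMn, 27426 to 28125 in FDI, 28083 to 37872 in FD and 29462 to 30404 in Mock, so that every FDI library lay below every FDMn and Mock library. Most of this sum was albumin, which averaged 27334 TPM in FDMn, 22959 in FDI, 28598 in FD and 25805 in Mock. Of 5 cholangiocyte markers Sox9 alone passed the filter, and their sum was 24.7 to 26.9 TPM in FDMn, 37.3 to 48.7 in FDI, 15.8 to 19.1 in FD and 33.4 to 39.9 in Mock, with FDI and Mock above FDMn and FD as in the core genes. The summed endothelial, stellate and blood cell markers stayed at or under 28.1 TPM in every library, with Nkg7 listed at 0 in all. The part of these markers in the results was not tested. Of the 87 genes, 82 reached a TPM of 1 in 3 or more samples and were tested, including all 76 core genes and 6 of the 11 paralogs. TPM keeps no read count, so the depth is unknown. In bulk RNA, fewer cells and less RNA per cell cannot be told apart.

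Within their groups, some libraries stood apart for these genes. FDI replicate 1 was the highest of its group in 64 of the 76 core genes. FD replicate 3 was the highest of its group in 51 and FD replicate 2 the lowest in 50. The median within-group SD of a core gene was 0.05 (log2) in FDMn and 0.09 in FDI, against 0.15 in FD and 0.05 in Mock. The SD exceeded 20% of the mean in 8 core genes in FD and in none in the other groups. The spread in FD was widest for Rpl10, with 266, 173 and 419 TPM, and Rps12, with 263, 178 and 400.4 TPM. Results are therefore also given without these libraries.

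**Figure D1:**
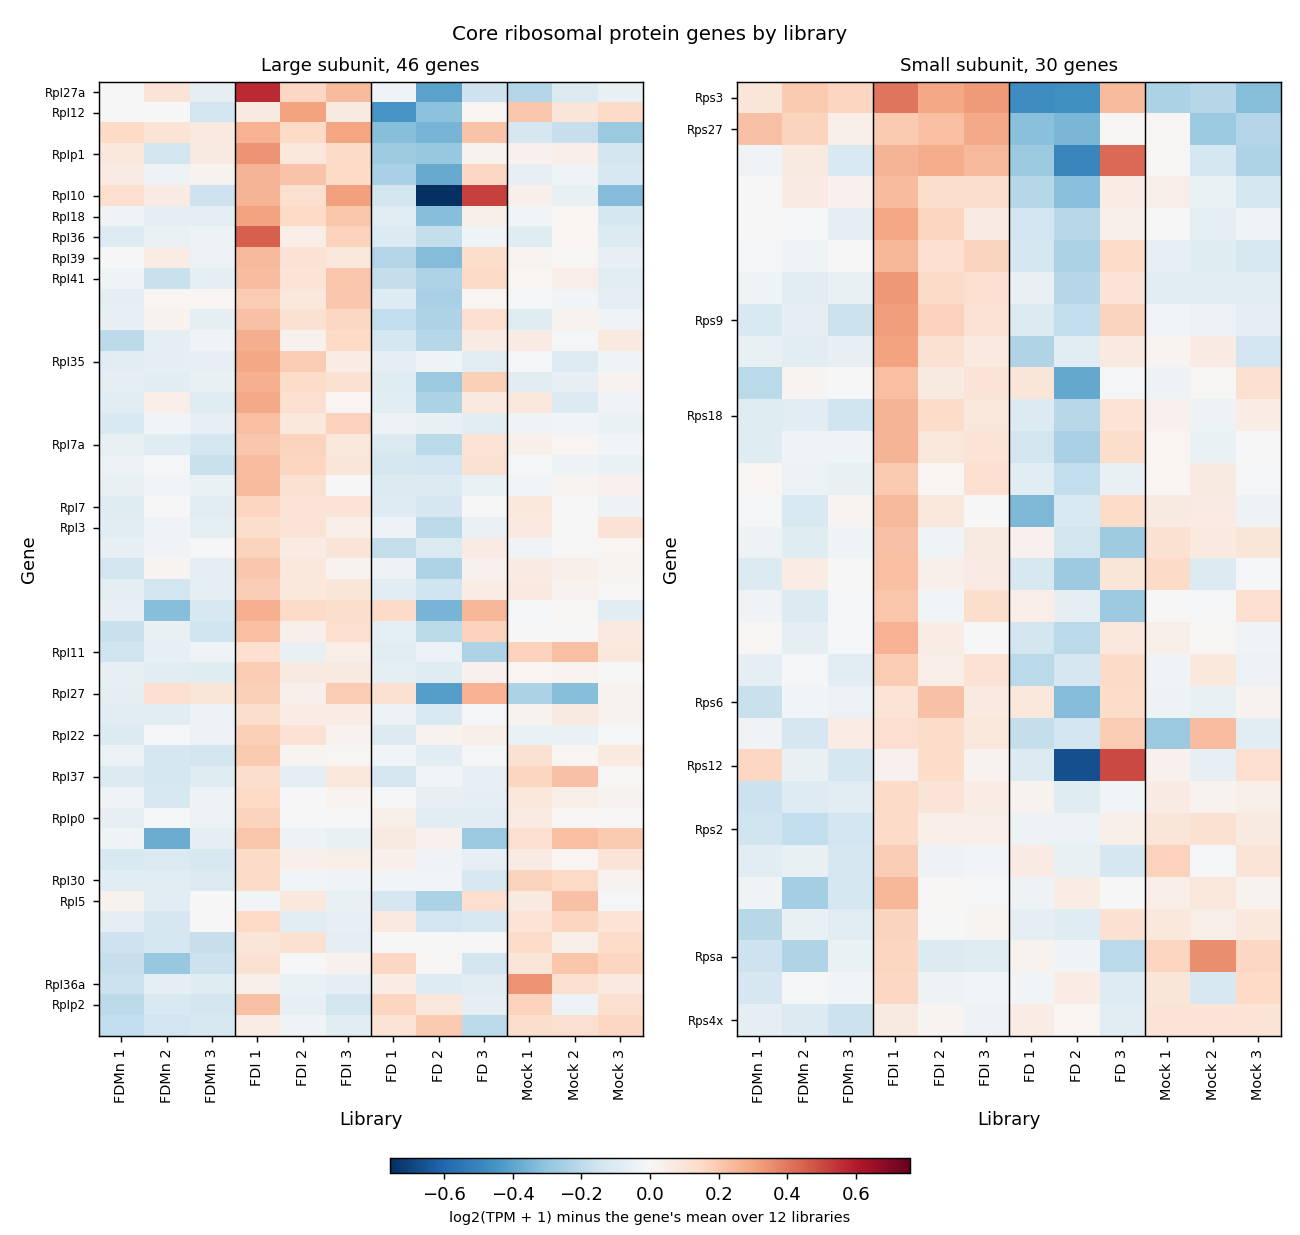
Level of each core ribosomal protein gene (rows) in the 12 libraries (columns), as log2(TPM + 1) minus the gene's mean over all libraries, for 46 large-subunit and 30 small-subunit genes sorted by their change with insulin, with the rows of genes named in the text labelled. The FDI columns are mostly above the mean, FDI replicate 1 most of all, and the 3 FD libraries differ among themselves more than the replicates of the other groups.

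As deposited, core genes averaged from 50.3 TPM (Rpl12) to 2962 TPM (Rpsa) over the 12 libraries, a 58.8-fold range with a median of 735 TPM. Rpsa, a small-subunit protein also known as the laminin receptor precursor, and Rplp1 (2284 TPM), an acidic protein of the stalk, were among the highest. Rpl12, which sits at the base of the stalk, Rpl5 (59.9 TPM), which escorts a small ribosomal RNA into the large subunit, and Rpl27 (218 TPM) were the lowest. TPM is scaled by transcript length, so these levels can be set side by side between genes.

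Much of that range moved with sequence shared between genes. Ribosomal protein genes have many processed copies in the genome, and a read that fits several copies has to be divided among them. In the GENCODE M21 transcripts (GRCm38), a core gene shared a median of 46% of its 31-base words with other genes, and up to 99% for Rpl35, and 33 of 76 shared at least 50%. The annotation the authors used is not given in the sources used here, so these shares describe M21. Some 101 other genes had at least 80% of their own words inside 1 of 54 genes of the family, 27 of these copies averaged over 100 TPM, and 15 had a higher level than the gene they copy. Gm10275 was listed at 1872 TPM beside Rpl12, Gm15500 at 1035 TPM beside Rpl5, and Gm7536 at 1821 TPM beside Rpl27a at 254 TPM. Gm11518 and Rpl27-ps3, copies of Rpl27, had the same mean of 420.5 TPM. With near copies added to their gene, the core levels ran from 295 TPM (Rpl39) to 2963 TPM (Rpsa), a 10.1-fold range. Paralogs that the rule takes were not counted as copies here or below. Rps12l1, which averaged 1284 TPM, was thus not added to Rps12. The order of the lowest genes therefore depends on the counting, and the level of a gene with such copies is uncertain.

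Rps6, the small-subunit protein that the S6 kinases phosphorylate downstream of mTORC1, shows how complete the overlap can be. Rps6 averaged 561 TPM and its processed copy Rps6-ps4 1354 TPM, and the 750 coding bases of Rps6 are identical in the copy. The line below is printed in lower case throughout because no base differs between them.
Rps6 and Rps6-ps4, bases 1 to 150: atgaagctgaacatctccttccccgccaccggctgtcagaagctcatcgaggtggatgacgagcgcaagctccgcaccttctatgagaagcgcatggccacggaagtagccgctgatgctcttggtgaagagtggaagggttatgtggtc

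**Figure D2:**
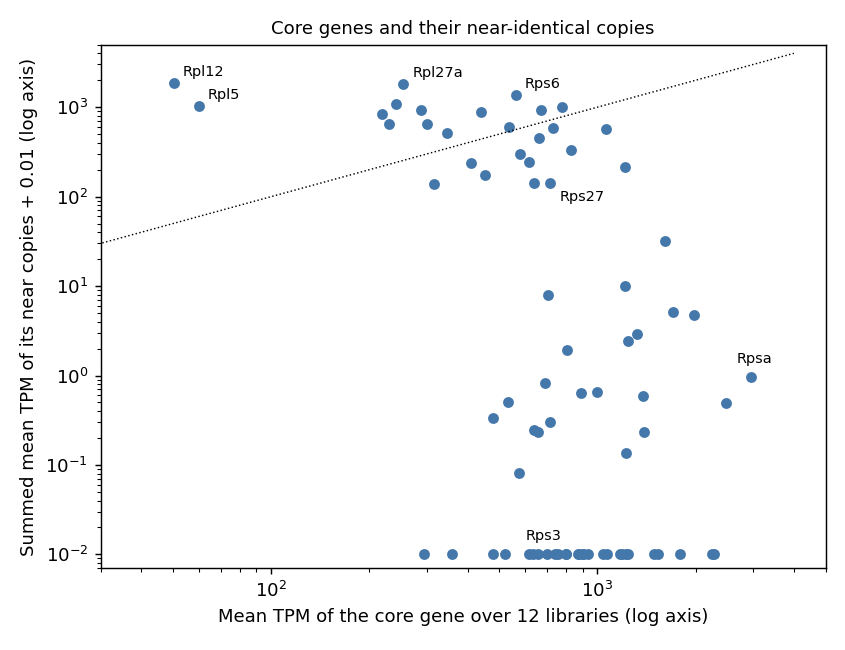
Mean TPM of each of the 76 core genes over 12 libraries (horizontal, log axis) and summed mean TPM of the copies with at least 80% of their 31-base words inside that gene (vertical, log axis, 0.01 added). The dotted line marks equal levels; Rpl12, Rpl5, Rpl27a and Rps6 lie above it, and genes without near copies lie at the bottom.

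Together the 76 core genes took 6.4 ± 0.04% of all TPM in FDMn, 7.26 ± 0.43% in FDI, 6.45 ± 0.29% in FD and 6.90 ± 0.08% in Mock (SD, n = 3 each). By library, the sums were 6.37 to 6.44% in FDMn, 7.0 to 7.75% in FDI, 6.16 to 6.74% in FD and 6.81 to 6.97% in Mock. Every FDI library was above every FDMn, FD and Mock library, and every FDMn and FD library was below every Mock library. The large subunit held 3.83 ± 0.02% in FDMn, 4.35 ± 0.25% in FDI, 3.88 ± 0.15% in FD and 4.14 ± 0.06% in Mock, and the small subunit 2.57 ± 0.02%, 2.91 ± 0.18%, 2.58 ± 0.14% and 2.76 ± 0.03% in the same order of groups. TPM sums to a fixed total, and the 13 mitochondrially encoded mRNAs took 15 ± 0.43% in FDMn, 12.3 ± 1.43% in FDI, 14.4 ± 1.1% in FD and 12.6 ± 0.30% in Mock. As a share of TPM outside those mRNAs, the core genes held 7.53 ± 0.06% in FDMn, 8.28 ± 0.36% in FDI, 7.54 ± 0.32% in FD and 7.90 ± 0.09% in Mock, with FD libraries from 7.28 to 7.90% and Mock libraries from 7.79 to 7.96%, which overlap. With near copies added, the core share of all TPM was 8.08 ± 0.02% in FDMn, 9.18 ± 0.54% in FDI, 8.18 ± 0.34% in FD and 8.68 ± 0.10% in Mock.

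**Figure D3:**
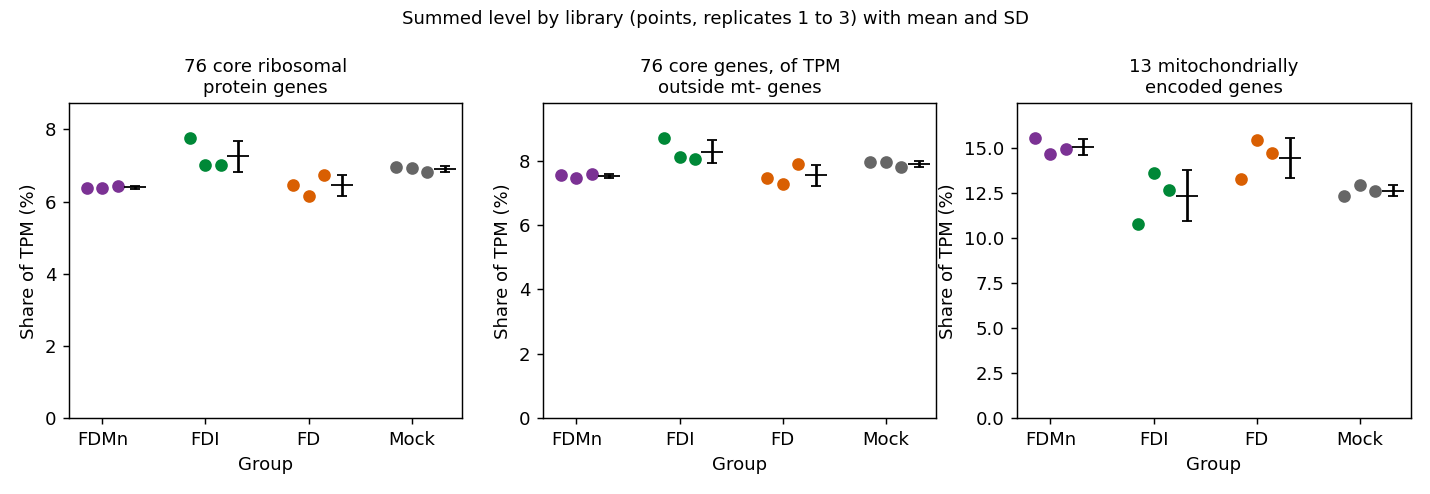
Share of TPM (%) held by the 76 core genes, by the same genes among TPM outside the 13 mitochondrially encoded mRNAs, and by those mRNAs, in each library of the 4 groups. Points are replicates and bars are mean and SD; the core share is highest in FDI (7.26 ± 0.43%), where the mitochondrial share is 12.3 ± 1.43%.

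Forskolin and dexamethasone lowered few core genes. In FD against Mock, 8 of 76 core genes (10.5%) fell and none rose, where 29.9% of all 11544 tested genes fell and 11.2% rose. Without any adjustment, 13 core genes had p under 0.05, and the matching share of all genes was not counted. The 19 core genes whose FD libraries all lay below Mock stand beside 34.7% of all genes that did so. The genes that fell included Rpl12, Rpsa, Rpl11, Rpl36a, Rpl37, Rpl30 and Rpl3. Rpl11, a partner of Rpl5 that can bind the p53 regulator Mdm2, had 993, 1024 and 895 TPM in FD libraries, against 1189, 1236 and 1116 TPM in Mock libraries (log2 change −0.28 ± 0.07 (SE), limma adjusted p = 0.0049). With its near copies added the Rpl11 change was −0.12 ± 0.05 (limma adjusted p = 0.056), and the call was lost. Rpsa had 2998, 2892 and 2552 TPM in FD libraries, against 3293, 3756 and 3279 TPM in Mock libraries (log2 change −0.29 ± 0.09 (SE), limma adjusted p = 0.019). In both genes the groups did not overlap as deposited. The Rpsa call was lost in 4 of 20 alternative settings, among them median-of-ratios scaling, leaving out Mock replicate 2 and leaving out FD replicate 3. Rpl12 averaged 42.2 ± 7.29 TPM in FD and 55.4 ± 2.13 TPM in Mock (log2 change −0.40 ± 0.11 (SE), limma adjusted p = 0.011), and with its near copies added the change was −0.09 ± 0.06 (limma adjusted p = 0.25).

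The median log2 change of the core genes in FD against Mock was −0.08, beside −0.15 for all genes tested, with 67 core genes below 0 and 9 above. Under a median-of-ratios scaling the median of all genes moved from −0.15 to −0.01, 17.7% of all genes were called higher and 17.2% lower, and the core median became 0.08 with 65 genes above 0. No core gene fell under that scaling, and 1 rose. The direction of the family against Mock thus depends on the scaling. As deposited and under median-of-ratios scaling, the core median lay above that of all genes. Under quantile normalization it lay below, at −0.068 beside −0.036. Without a filter on low values it also lay below, at −0.084 beside −0.020. Without FD replicate 3, 25 core genes fell (28.1% of all genes), without FD replicate 2 there were 5 (26.8%), without Mock replicate 1 there were 3 (25.7%), and without Mock replicate 2 there were 4 (25.7%).

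Insulin was followed by higher levels of many core genes. In FDI against FD, 22 of 76 core genes (28.9%) rose and none fell, where 10.2% of all genes rose and 4.35% fell. The median log2 change was 0.19, beside 0.04 for all genes, 74 of 76 genes were above 0, and in 26 every FDI library lay above every FD library, as did 19.6% of all genes. Both subunits took part, with 15 of 46 large-subunit and 7 of 30 small-subunit genes called. The changes were small and close together, with an SD of 0.12 over the core genes, against 0.33 over all genes. All genes tested include many of low level. For lists given below, the SD was 0.16 for initiation factors, 0.16 for mitochondrial ribosomal proteins and 0.18 for elongation factors. It was 0.17 for other TOP mRNAs and 0.53 for regulators of TOP mRNAs and mTORC1.

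The highest change was that of Rps3, which lines the mRNA entry channel and also acts in DNA repair. It had 799.6, 741 and 757 TPM in FDI libraries, against 435, 438 and 713 TPM in FD libraries (log2 change 0.57 ± 0.14 (SE), limma adjusted p = 0.02). The groups did not overlap, but FD replicate 3 lay near the FDI libraries. Rpl27a, a large-subunit protein, had 371, 279.7 and 295 TPM in FDI libraries, against 245, 189 and 224 TPM in FD libraries (log2 change 0.52 ± 0.11 (SE), limma adjusted p = 0.0082), with FDI replicate 1 well above the others. With its near copies the change was 0.21 ± 0.06 (limma adjusted p = 0.036). Rps27, a zinc-finger protein of the small subunit, had 814, 831 and 864 TPM in FDI libraries, against 569.7, 557 and 713 TPM in FD libraries (log2 change 0.46 ± 0.10 (SE), limma adjusted p = 0.008). The 2 calls of Rpl27a and Rps27 were kept under all 20 alternative settings, and that of Rps3 under 14 of 20. Rpl12 (0.40 ± 0.11, limma adjusted p = 0.029) and Rplp1 (0.37 ± 0.10, limma adjusted p = 0.027) were next, with calls lost in 10 and 9 of 20 settings, and the Rpl12 change was 0.06 ± 0.06 (limma adjusted p = 0.56) with its near copies.

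How many core genes passed depended on single libraries, on the scaling and on the samples fitted. Without FD replicate 3, 45 core genes rose and 1 fell, where 12.5% of all genes rose. Without FD replicate 1 there were 9 (7.25% of all genes) and without FD replicate 2 there were 5 (7.48%). Without FDI replicate 1, 2 or 3 there were 6, 12 and 10, where 6.95%, 7.29% and 6.35% of all genes rose. Without both FD replicate 3 and FDI replicate 1, 37 rose and 1 fell, where 9.42% of all genes rose. With only the FDI and FD libraries in the model 2 core genes rose, where 5.90% of all genes did. Median-of-ratios scaling left 7, at which 7.30% of all genes were higher and 6.09% lower, and TPM rescaled without mitochondrially encoded mRNAs left 15 (7.62% of all genes). Over the 20 settings the core median stayed between 0.12 and 0.26, with 64 to 75 of 76 genes above 0. The mitochondrial share differed between FDI (12.3 ± 1.43%) and FD (14.4 ± 1.1%), and FDI replicate 1 had the lowest of the 12 libraries, 10.8%.

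With manganese in place of insulin, core genes were lower. In FDMn against FDI, 21 of 76 core genes (27.6%) fell and none rose, where 11.9% of all genes fell and 5.68% rose. All 76 changes were below 0, with a median of −0.18, beside −0.04 for all genes, and in 57 genes every FDMn library lay below every FDI library, as did 25.6% of all genes. By subunit, 15 of 46 large-subunit and 6 of 30 small-subunit genes fell. Rps9, a small-subunit protein, had 731, 756 and 710.0 TPM in FDMn libraries, against 989, 895 and 857 TPM in FDI libraries (log2 change −0.32 ± 0.08 (SE), limma adjusted p = 0.02). Rps2, which lies at the mRNA entry of the small subunit, had 1453, 1414 and 1460.0 TPM in FDMn libraries, against 1779.7, 1670.0 and 1667 TPM in FDI libraries (log2 change −0.24 ± 0.04 (SE), limma adjusted p = 0.003). Neither gene's groups overlapped, and the Rps2 call was kept under all 20 settings, that of Rps9 under 15. Rpl36 (−0.29), Rpl18 (−0.28), Rpl41 (−0.27) and Rps18 (−0.27) also fell by the same test, but these calls were lost in 13, 10, 12 and 9 of 20 settings.

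The number of calls again depended on these choices. It was 5 without FDI replicate 1 and 13 without FDI replicate 2, where 8.57% and 8.48% of all genes fell. It was 8, 8 and 7 without FDMn replicate 1, 2 or 3, where 7.99%, 8.49% and 8.08% fell, and 32 with only the FDMn and FDI libraries in the model, where 13.9% fell. Under median-of-ratios scaling 5 core genes fell, at which 7.18% of all genes were higher and 8.59% lower, and without mitochondrially encoded mRNAs 9 fell (8.72% of all genes). Over the 20 settings the core median stayed between −0.21 and −0.08 and at least 66 of 76 genes were below 0. The mitochondrial share was 15 ± 0.43% in FDMn and 12.3 ± 1.43% in FDI, and its part in this result was not tested beyond those rescaled counts.

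Few core genes passed with manganese against FD. In FDMn against FD, 1 of 76 core genes rose and 1 fell (1.32% each), where 7.22% of all genes rose and 7.90% fell. The median change was 0.00, as for all genes, with 39 genes above 0 and 37 below. Rps27 had 826, 798 and 731 TPM in FDMn libraries, against 569.7, 557 and 713 TPM in FD libraries (log2 change 0.36 ± 0.10 (SE), limma adjusted p = 0.025), with no overlap, and its change with near copies added was 0.32 ± 0.12 (limma adjusted p = 0.097). Rps2 had 1453, 1414 and 1460.0 TPM in FDMn libraries, against 1570.2, 1561 and 1663 TPM in FD libraries (log2 change −0.15 ± 0.04 (SE), limma adjusted p = 0.043). Without FD replicate 3, 11 core genes rose and 3 fell, where 8.71% of all genes rose and 8.84% fell. The Rps2 call was lost without any 1 of the 6 FDMn and FD libraries, and the Rps27 call without FD replicate 1 or 2 or FDMn replicate 1 or 2. The comparisons with FD share the FD libraries, as those with FDI share the FDI libraries, and since all 12 libraries entered 1 model, the spread of the FD libraries enters the error of all 4 comparisons.

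**Figure D4:**
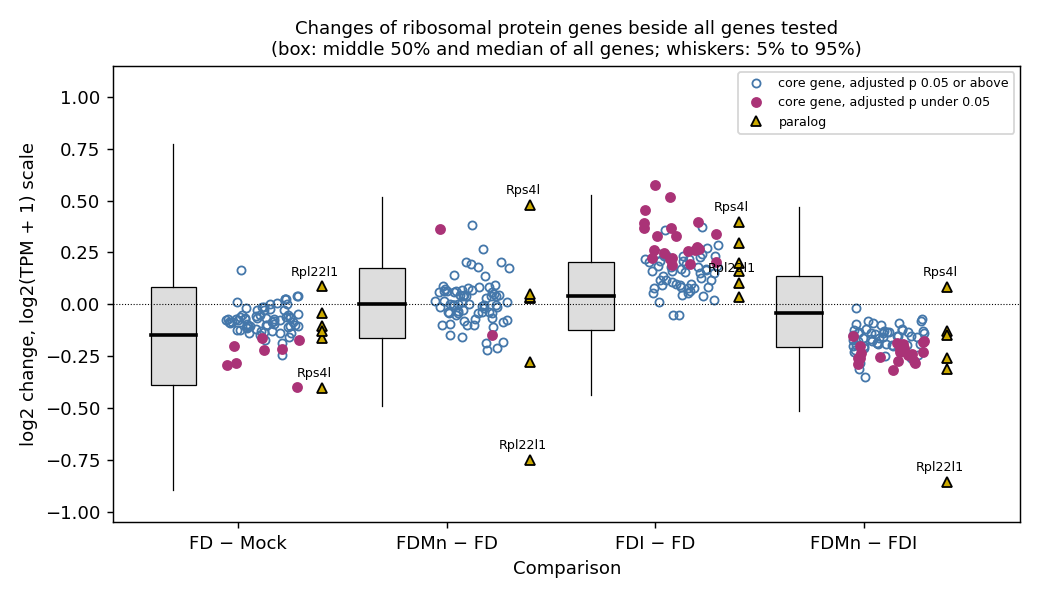
Log2 changes on the log2(TPM + 1) scale of the 76 core genes (circles, filled where the adjusted p was under 0.05) and the 6 expressed paralogs (triangles) in each comparison, beside all 11544 genes tested (box, middle 50% and median; whiskers, 5% to 95%). The core genes lie in a narrow band that is mostly above 0 in FDI against FD and wholly below 0 in FDMn against FDI, and Rpl22l1 lies far under it in both comparisons of FDMn.

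Group means of the single genes followed the sums. The highest of the 4 group means was that of FDI in 58 core genes and that of Mock in 18, and in no gene that of FDMn or FD. The lowest was that of FDMn in 37, FD in 32 and Mock in 7, and in no gene that of FDI.

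By role, 1 of the 3 P-stalk proteins, which recruit the GTPases of translation, passed with insulin. Rplp1 had 2871, 2409 and 2505 TPM in FDI libraries, against 1879, 1858 and 2313 TPM in FD libraries, and rose. Rplp0, the stalk's anchor, had 1366, 1221 and 1219 TPM in FDI libraries, against 1258, 1146 and 1146 TPM in FD libraries, and Rplp2, the partner of Rplp1, 1442, 1182 and 1121 TPM in FDI libraries, against 1384, 1313 and 1173 TPM in FD libraries. Neither passed (0.10 ± 0.06, limma adjusted p = 0.26 for Rplp0 and −0.05 ± 0.09, limma adjusted p = 0.76 for Rplp2). The difference between stalk genes was not tested.

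Other proteins of known role are given one by one. Rpl3, a core protein of the peptidyl transferase centre, averaged 700.1 ± 20.7 TPM in FDI and 614 ± 36.8 TPM in FD (log2 change 0.19 ± 0.05 (SE), limma adjusted p = 0.03), a call lost in 8 of 20 settings. Rpl7 averaged 804 ± 22 TPM in FDI and 703 ± 32.8 TPM in FD (log2 change 0.20 ± 0.05 (SE), limma adjusted p = 0.025), and fell in FDMn, at 711 ± 24.6 TPM, against FDI (log2 change −0.18 ± 0.05 (SE), limma adjusted p = 0.033). The Rpl7 call was lost in 9 of 20 settings in FDI against FD and in 12 of 20 in FDMn against FDI, where the change reached −0.03. Rpl39, a small protein lining the exit tunnel, averaged 325 ± 19.7 TPM in FDI and 269 ± 46.3 TPM in FD (0.29 ± 0.10, limma adjusted p = 0.067). Rpl10, which is added late in assembly of the large subunit, averaged 344 ± 22.7 TPM in FDI and 286 ± 124 TPM in FD and did not pass (0.36 ± 0.23, limma adjusted p = 0.35). With its near copies Rpl10 had a change of 0.28 ± 0.09 (limma adjusted p = 0.044). Rps6 averaged 614 ± 34.2 TPM in FDI and 551 ± 93 TPM in FD and did not pass in any comparison. Rps4x, an X-linked small-subunit gene, averaged 834 ± 25.8 TPM in FDMn, 914 ± 34 TPM in FDI, 900.0 ± 45.3 TPM in FD and 966 ± 3.06 TPM in Mock and passed in none. Rpl36a was called in FD against Mock alone, with 555, 498 and 505 TPM in FD libraries, against 676, 581 and 561 TPM in Mock libraries (log2 change −0.22 ± 0.07 (SE), limma adjusted p = 0.026), and that call was lost in 10 of 20 settings.

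The paralog called lower with manganese was Rpl22l1 (chr3:28805436-28807424, plus strand, GENCODE M21 on GRCm38). Rpl22l1 is a protein-coding relative of Rpl22 that can take its place in the large subunit, and in mouse cells the Rpl22 protein is known to restrain it. Their coding sequences are 72.7% identical, with 100 of 366 aligned bases differing. An aligned stretch without gaps is given for both, from the annotated transcripts, to show how far a read can tell them apart, with the 35 of 136 bases that differ in capitals.
Rpl22l1 coding bases 157 to 292: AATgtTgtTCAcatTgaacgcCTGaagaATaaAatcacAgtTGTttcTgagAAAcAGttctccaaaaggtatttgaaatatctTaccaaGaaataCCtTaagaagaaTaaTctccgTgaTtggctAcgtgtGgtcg
Rpl22 coding bases 175 to 310: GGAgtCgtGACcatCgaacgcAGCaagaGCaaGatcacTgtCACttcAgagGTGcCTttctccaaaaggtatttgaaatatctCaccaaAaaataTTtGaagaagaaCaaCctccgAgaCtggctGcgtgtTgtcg

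Rpl22l1 had 41.6, 46.5 and 39.9 TPM in FDMn libraries, 76.2, 81.5 and 75.7 TPM in FDI libraries, 73.7, 64.6 and 79.3 TPM in FD libraries and 61.2, 74.3 and 69.1 TPM in Mock libraries. Every FDMn library was below every library of the other groups, and the FD libraries overlapped with those of FDI and of Mock. Rpl22l1 fell in FDMn against FD (log2 change −0.75 ± 0.09 (SE), limma adjusted p = 0.00027) and in FDMn against FDI (log2 change −0.85 ± 0.09 (SE), limma adjusted p = 7.8e-05), and did not pass in FD against Mock (0.09 ± 0.09, limma adjusted p = 0.49) or FDI against FD (0.10 ± 0.09, limma adjusted p = 0.5). The calls in both FDMn comparisons were kept under all 20 settings. Rpl22 had 590.2, 628 and 616 TPM in FDMn libraries, against 591, 646 and 652 TPM in FD libraries, and did not pass (−0.04 ± 0.05, limma adjusted p = 0.66). The level of Rpl22l1 was 6.98 ± 0.466% of that of Rpl22 in FDMn, 11.4 ± 0.713% in FDI, 11.5 ± 1.34% in FD and 11 ± 1.06% in Mock (SD, n = 3 each). Rpl22l1 shares 67.5% of its 31-base words with other genes, most with the pseudogene Gm15421, which was listed at 0 TPM in the FDMn libraries, averaged 0.17 TPM in FDI, was at 0 in the FD libraries and averaged 1.38 TPM in Mock.

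Rps4l (chr6:148354656-148355598, plus strand) is annotated as a transcribed processed pseudogene of Rps4x, with 80.1% identity over 789 aligned bases. Rps4l has no annotated coding sequence. The first 150 bases of its transcript are given beside the first 150 coding bases of Rps4x, with the 31 that differ in capitals. In the Rps4l line, coding therefore means only aligned to the coding sequence of Rps4x.
Rps4l coding bases 1 to 150: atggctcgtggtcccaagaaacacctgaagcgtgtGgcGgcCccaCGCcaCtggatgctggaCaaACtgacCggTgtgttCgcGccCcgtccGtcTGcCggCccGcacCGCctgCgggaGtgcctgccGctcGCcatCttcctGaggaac
Rps4x coding bases 1 to 150: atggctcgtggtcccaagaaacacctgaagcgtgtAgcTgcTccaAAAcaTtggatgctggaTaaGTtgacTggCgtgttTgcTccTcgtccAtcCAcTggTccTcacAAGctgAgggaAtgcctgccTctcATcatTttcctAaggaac

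Rps4l had 58.8, 54.8 and 52.4 TPM in FDMn libraries, 57.1, 47.5 and 52.3 TPM in FDI libraries, 37.1, 36.7 and 44.8 TPM in FD libraries and 53.3, 54.1 and 49.8 TPM in Mock libraries. The FD libraries lay below all others. It fell in FD against Mock (log2 change −0.40 ± 0.09 (SE), limma adjusted p = 0.0036) and rose in FDMn against FD (log2 change 0.48 ± 0.09 (SE), limma adjusted p = 0.0039) and in FDI against FD (log2 change 0.40 ± 0.09 (SE), limma adjusted p = 0.012), while FDMn against FDI did not pass (0.08 ± 0.09, limma adjusted p = 0.59). The call with manganese was kept under all 20 settings. The call against Mock was lost under median-of-ratios scaling (limma adjusted p = 0.051), and the call with insulin was lost when only the 2 groups compared were fitted and without FDI replicate 1. Whether it makes a protein is not measured here.

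Rps27l is a relative of Rps27 known in mouse and human cells as a target of p53, and it did not pass in any comparison, with 346 ± 6.77 TPM in FDMn, 383 ± 18 TPM in FDI, 335 ± 37.6 TPM in FD and 343 ± 12 TPM in Mock. Rps27 itself rose in FDMn and in FDI against FD. As a share of Rps27, Rps27l was 44.2 ± 3.22% in FDMn, 45.9 ± 3.53% in FDI, 54.7 ± 1.66% in FD and 54.5 ± 6.68% in Mock. The pair has coding sequences of equal length, 255 bases, with 61 differing, which are in capitals below.
Rps27l coding bases 1 to 255: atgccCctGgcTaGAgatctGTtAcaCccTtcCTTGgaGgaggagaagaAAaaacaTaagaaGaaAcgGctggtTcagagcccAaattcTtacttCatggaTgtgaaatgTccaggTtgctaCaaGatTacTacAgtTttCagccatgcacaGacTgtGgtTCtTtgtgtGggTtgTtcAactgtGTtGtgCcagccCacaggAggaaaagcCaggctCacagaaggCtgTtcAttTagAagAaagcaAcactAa
Rps27 coding bases 1 to 255: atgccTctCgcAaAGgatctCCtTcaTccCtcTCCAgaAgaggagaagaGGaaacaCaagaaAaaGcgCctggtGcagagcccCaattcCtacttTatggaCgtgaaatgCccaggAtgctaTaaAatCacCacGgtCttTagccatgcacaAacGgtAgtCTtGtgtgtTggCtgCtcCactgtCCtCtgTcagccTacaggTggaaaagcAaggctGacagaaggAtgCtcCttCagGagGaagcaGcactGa

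Of the other paralogs, Rpl7l1, a relative of Rpl7 linked to ribosome assembly, had 62.5, 63.1 and 59.9 TPM in FDI libraries, against 44.2, 52.9 and 54.2 TPM in FD libraries (log2 change 0.29 ± 0.09 (SE), limma adjusted p = 0.044), a call that was lost in 13 of 20 settings. Rpl36al, a close relative of Rpl36a, and Rps12l1, annotated as a processed pseudogene, did not pass in any comparison. Rps12l1 averaged 1284 TPM over all libraries, above Rps12 at 287 TPM. It had 1116, 1061 and 1035 TPM in FDMn libraries, against 1307, 1292 and 1288 TPM in FD libraries, with no overlap. In FDMn against FD it was called under 1 of 20 settings. Its 399 bases are identical to the coding sequence of Rps12, so that the division of reads between them is uncertain. Rpl10l and Rpl6l stayed under the filter, at no more than 0.218 and 0.996 TPM. Rpl3l, a muscle form of Rpl3, Rpl39l, a testis form of Rpl39, and Rpl32l were listed at 0 in all 12 libraries.

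**Figure D5:**
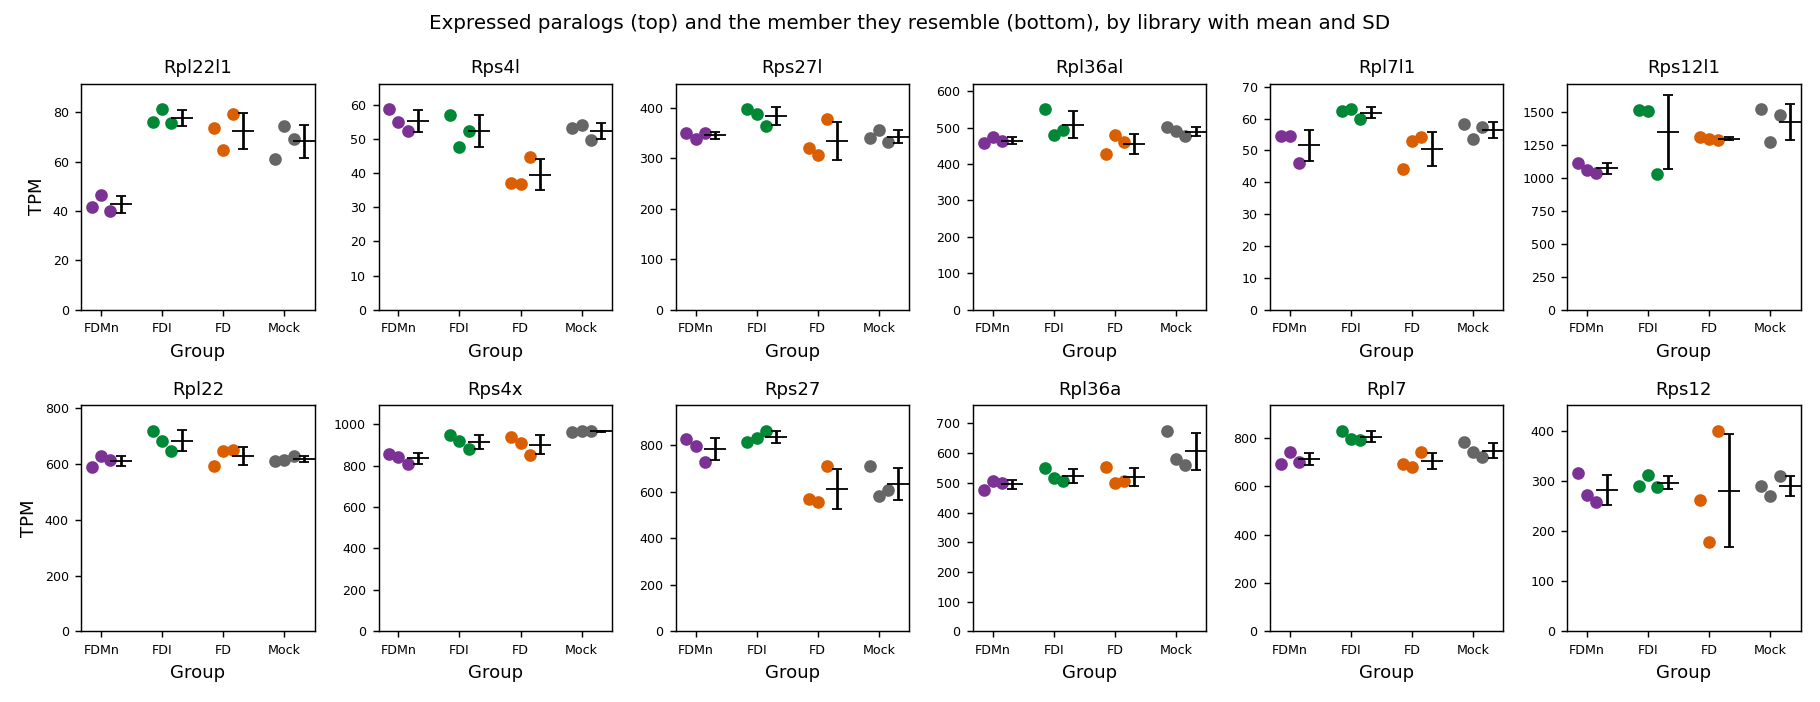
TPM of the 6 expressed paralogs (top) and of the core gene each resembles (bottom) in every library of the 4 groups, with mean and SD. Rpl22l1 is at 42.7 TPM in FDMn and 72.5 TPM in FD while Rpl22 is at 611 and 629.6 TPM, and Rps4l is lowest in FD.

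Among ribosome components outside the symbol rule, Rack1, a scaffold on the small subunit, was called in 2 comparisons. It averaged 813 ± 38.9 TPM in FDMn, 913 ± 22.1 TPM in FDI, 773 ± 13.1 TPM in FD and 834 ± 9.72 TPM in Mock, rose in FDI against FD (log2 change 0.24 ± 0.04 (SE), limma adjusted p = 0.004) and fell in FDMn against FDI (log2 change −0.17 ± 0.04 (SE), limma adjusted p = 0.023). Rps3a1 and Fau did not pass in any comparison.

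The machinery around the ribosome is given for the same comparisons from lists of known factors. The shares of all tested genes to read these counts against are 11.2% higher and 29.9% lower in FD against Mock, 7.22% and 7.9% in FDMn against FD, 10.2% and 4.35% in FDI against FD, and 5.68% and 11.9% in FDMn against FDI. Of 34 initiation factors, 1 rose and 13 fell in FD against Mock, 4 rose and 2 fell in FDMn against FD, 9 rose and 1 fell in FDI against FD, and 1 rose and 9 fell in FDMn against FDI. As shares of the list, 38.2% fell in FD against Mock, 26.5% rose in FDI against FD and 26.5% fell in FDMn against FDI. Eif3c, a subunit of the factor that binds the small subunit, averaged 175 ± 2.62 TPM in FDMn, 218 ± 2.45 TPM in FDI, 166 ± 4.19 TPM in FD and 215 ± 1.96 TPM in Mock. It fell in FD against Mock (log2 change −0.37 ± 0.04 (SE), limma adjusted p = 2.5e-05), rose in FDI against FD (log2 change 0.39 ± 0.04 (SE), limma adjusted p = 9.2e-05) and fell in FDMn against FDI (log2 change −0.31 ± 0.04 (SE), limma adjusted p = 0.00038). Eif2s2, which helps deliver the initiator tRNA, rose both in FDMn (log2 change 0.25 ± 0.05 (SE), limma adjusted p = 0.0078) and in FDI (log2 change 0.47 ± 0.05 (SE), limma adjusted p = 0.00011) against FD. The cap-binding gene Eif4e also rose in both, with log2 changes of 0.29 ± 0.07 in FDMn and 0.33 ± 0.07 in FDI (limma adjusted p = 0.012 and 0.0052). Eif4b fell in both, by 0.34 and 0.26 on the log2 scale.

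The elongation factor list of 9 genes also holds related genes that are not elongation factors, among them Eef2k, Eef1e1 and Tpt1. In FD against Mock none of the 9 rose and 2 fell, Eif5a and Eef2k (22.2%, where 29.9% of all genes fell). None passed in FDMn against FD. In FDI against FD 2 rose, Eif5a and Eef1e1 (22.2%, beside 10.2%). In FDMn against FDI 3 fell, Eif5a, Eef1d and Eef1b2 (33.3%, beside 11.9%). Eif5a, which helps stalled ribosomes, averaged 705 ± 23.7 TPM in FDMn, 927 ± 43.5 TPM in FDI, 769 ± 75.3 TPM in FD and 895 ± 19.6 TPM in Mock, and was called in FD against Mock, FDI against FD and FDMn against FDI. Of 8 tested mRNAs from a list of other TOP genes, 5 fell in FD against Mock (62.5%, where 29.9% of all genes fell), among them the poly-A-binding protein Pabpc1 (log2 change −0.42 ± 0.05 (SE), limma adjusted p = 4e-05) and Hnrnpa1 (log2 change −0.41 ± 0.06 (SE), limma adjusted p = 0.00017). In FDMn against FD 1 of them rose, Npm1, in FDI against FD 2 rose, Npm1 and Naca, and in FDMn against FDI 1 fell, Naca.

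The 78 proteins of the mitochondrial ribosome, which come from nuclear genes and form a separate ribosome, moved as follows. In FD against Mock 2 rose and 24 fell (30.8%, near the 29.9% of all genes), in FDMn against FD 4 rose and 3 fell, in FDI against FD 12 rose and none fell (15.4% higher, beside 10.2%), and in FDMn against FDI 2 rose and 12 fell (15.4% lower, beside 11.9%). Their median log2 change was −0.15 in FD against Mock, 0.04 in FDMn against FD, 0.12 in FDI against FD and −0.13 in FDMn against FDI, beside −0.15, 0.00, 0.04 and −0.04 for all genes. Mrps31 was 1 of the 2 that rose, with 63.3 ± 1.07 TPM in FD and 27.7 ± 2.42 TPM in Mock (log2 change 1.17 ± 0.09 (SE), limma adjusted p = 6.9e-07). Mrpl27 averaged 60.5 ± 3.70 TPM in FDI and 45.4 ± 5.08 TPM in FD (log2 change 0.41 ± 0.08 (SE), limma adjusted p = 0.006).

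Among 25 regulators of TOP mRNAs and mTORC1, 5 rose and 9 fell in FD against Mock (20% and 36%, beside 11.2% and 29.9% of all genes), 2 rose and 4 fell in FDMn against FD, 6 rose and 4 fell in FDI against FD (24% and 16%, beside 10.2% and 4.35%), and 3 rose and 5 fell in FDMn against FDI (12% and 20%, beside 5.68% and 11.9%). Myc, a transcription factor known to drive ribosomal protein genes, averaged 106 ± 4.40 TPM in FDMn, 161 ± 9.61 TPM in FDI, 103 ± 1.87 TPM in FD and 184 ± 13.2 TPM in Mock. It fell in FD against Mock (log2 change −0.82 ± 0.06 (SE), limma adjusted p = 8.7e-07), rose in FDI against FD (log2 change 0.63 ± 0.06 (SE), limma adjusted p = 5.6e-05), fell in FDMn against FDI (log2 change −0.60 ± 0.06 (SE), limma adjusted p = 7.8e-05) and did not pass in FDMn against FD (0.03 ± 0.06, limma adjusted p = 0.78). Larp1 averaged 45.3 ± 1.17 TPM in FDMn, 61 ± 3.78 TPM in FDI, 47.4 ± 0.997 TPM in FD and 58.4 ± 0.462 TPM in Mock and was called in the same 3 comparisons in the same directions. Sesn1, a sestrin that restrains mTORC1, averaged 6.89 ± 0.629 TPM in FDMn, 5.19 ± 0.573 TPM in FDI, 12.2 ± 1.09 TPM in FD and 2.98 ± 0.253 TPM in Mock. Sesn1 fell against FD both in FDMn (log2 change −0.74 ± 0.11 (SE), limma adjusted p = 0.001) and in FDI (log2 change −1.09 ± 0.11 (SE), limma adjusted p = 5.8e-05). Another sestrin, Sesn2, had the smallest adjusted p of the list in FDI against FD and in FDMn against FDI. Its values are not reported here, so Sesn1 does not stand for the sestrins. Changes over the list ran from −1.30 to 1.07 in FDI against FD and from −0.79 to 0.82 in FDMn against FDI. Pdcd4, which blocks the helicase of the initiation factors, averaged 10.1 ± 1.13 TPM in FDMn, 5.29 ± 0.451 TPM in FDI and 14.5 ± 2.14 TPM in FD, and fell in both against FD (log2 change −0.48 ± 0.12 (SE), limma adjusted p = 0.016 in FDMn; log2 change −1.30 ± 0.12 (SE), limma adjusted p = 1.9e-05 in FDI). Ddit4, another brake on mTORC1, averaged 43.4 ± 4.35 TPM in FDMn, 65.8 ± 6.00 TPM in FDI, 43 ± 4.77 TPM in FD and 19.2 ± 0.450 TPM in Mock, rose in FD against Mock (log2 change 1.12 ± 0.10 (SE), limma adjusted p = 2.5e-06) and rose again in FDI against FD (log2 change 0.60 ± 0.10 (SE), limma adjusted p = 0.0017).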

How the data were processed

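Poly-A RNA sequencing was made in 12 libraries, per the labels' protocols with TruSeq kits. The authors deposited 1 table of TPM per gene symbol, in which each column has the same total. The tools named per the submitters' processing notes are kallisto 0.44.0 and, with no stated role, DESeq2, on the build GRCm38.p6. Annotation, strand and filters are not stated there. TPM holds no depth, so counting intervals cannot be given.

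A gene was tested where its TPM reached 1 in 3 or more of 12 samples (11544 of 36144). The values were analysed as log2(TPM + 1), a scale that understates changes of low genes. All 12 samples entered 1 linear model of the 4 groups in limma 3.58.1 (R 4.3.3), with an intensity trend, two-sided tests, Benjamini-Hochberg adjustment over all genes tested and a threshold of 0.05. Groups were taken from the sample titles and columns were matched by library name. In simulated data with 200 of 11544 genes changed, the fit for FDI against FD recovered 19.6% of 1.25-fold, 57.8% of 1.5-fold and 88.2% of 2-fold changes. That for FDMn against FDI recovered 13.7% of 1.25-fold changes. Most core changes are near or below 1.25-fold. The simulation drew independent noise with the same spread in every group, and its changed genes came from all genes tested. The wider spread in FD and shifts of whole libraries were not simulated, so these rates need not hold for the core genes.

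The members and lists were chosen with earlier results of these data known. Genes were named by a rule: all paralogs, up to 5 core genes with the highest and lowest called change per comparison, the 3 highest and 3 lowest mean levels, fixed genes of known role, ribosome components outside the symbol rule, and up to 3 called genes per list and comparison. Rpl37, Rpl30 and the genes shown for their near copies, their spread or their start windows were named after their values were seen. Tpt1 is in 2 of the lists. Some genes that the rule names are not reported here. Alternatives were other scalings, pseudocounts, filters, priors, a replicate block, added copies and left-out libraries. Sharing of 31-base words was computed from GENCODE M21 transcripts, coding sequence from the same annotation, and start windows from RefSeq.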

Additional observations from a re-analysis of the deposited data

How the results depend on the processing

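The values below are counts of the 76 core genes that passed, or their median log2 change. Percentages in brackets are the shares of all tested genes called in that direction. In FD against Mock, 8 fell (29.9%) and none rose (11.2%). Median-of-ratios scaling gave 0 lower (17.2%) and 1 higher (17.7%) and turned the median of −0.084 to 0.077. Lower genes numbered 5 without mitochondrially encoded mRNAs (26.3%), 3 without a filter (14.6%) and 3 without an intensity trend (29.3%). They numbered 3 with only the 2 groups fitted (23.2%) and 4 with near copies added (30%). In FDI against FD, 22 rose (10.2%) and none fell (4.35%). Higher genes numbered 7 under median-of-ratios scaling (7.30%), 10 under quantile normalization (6.89%) and 9 without a filter (4.32%). They numbered 10 without a trend (8.97%) and 2 with only the 2 groups fitted (5.90%). Quantile normalization gave a median of 0.12. In FDMn against FDI, 21 fell (11.9%). Lower genes numbered 5 under median-of-ratios scaling (8.59%), 6 under quantile normalization (7.87%) and 9 without mitochondrially encoded mRNAs (8.72%). They numbered 8 without a filter (5.22%), 5 without a trend (10.6%) and 32 with only the 2 groups fitted (13.9%). The medians were −0.13, −0.080 and −0.14 under the first 3 of these settings and −0.20 when TPM was rescaled to all other genes.

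In FDMn against FD, 1 rose (7.22%) and 1 fell (7.90%). Higher genes numbered 0 without a filter (3.38%), with only the 2 groups fitted (4.87%) and with near copies added (7.30%). Lower genes numbered 0 without a filter (3.39%), without a trend (7.22%) and with only the 2 groups fitted (5.39%). They also numbered 0 when TPM was rescaled to all other genes (7.94%), 2 with near copies (8.01%) and 3 under quantile normalization (7.67%). The median was 0.013 without mitochondrially encoded mRNAs and 0.036 under quantile normalization. With near copies the change of Rpl12 in FDMn against FD turned to −0.21. The cause of these shifts was not tested.

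Leaving out 1 library gave 3 to 25 lower (25.5% to 28.1%) and 0 to 2 higher genes (10.1% to 10.8%) in FD against Mock, with medians from −0.14 to −0.04. It gave 5 to 45 higher (6.35% to 12.5%) and 0 to 1 lower genes (2.78% to 5.92%) in FDI against FD, with medians from 0.14 to 0.26. It gave 5 to 18 lower genes (7.99% to 8.57%) in FDMn against FDI, with medians from −0.21 to −0.14. In FDMn against FD it gave 0 to 11 higher (4.14% to 8.71%) and 0 to 3 lower genes (4.68% to 8.84%). The medians there ran from −0.040 (without FD replicate 2) to 0.062 (without FD replicate 3), beside 0.0026 with every library. Without FD replicate 3 and FDI replicate 1, an alternative chosen after seeing the data like the near copies, 33 fell in FD against Mock (28.4%). Under that alternative 37 rose (9.42%) and 1 fell (4.27%) in FDI against FD. In FDMn against FD 12 then rose (8.68%) and 5 fell (9%), with a median of 0.062. In FDMn against FDI 20 fell (9.94%), with a median of −0.14. Leaving out 1 library gave Rps3 changes in FD against Mock from −0.21 (without FD replicate 3) to 0.15 (without FD replicate 1).

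Samples of the same number in different groups did not deviate together (r from −0.10 to 0.07 over 18 pairs, none over 0.1, and 5 of 12 samples correlated best with their own number). No pairing by number was thus seen, but these correlations cannot show whether samples of 1 number were prepared together. With the replicate block 9 fell in FD against Mock (29.3%), 18 rose in FDI against FD (9%) and 16 fell in FDMn against FDI (10.8%). In FDMn against FD 1 rose (6.56%) and 0 fell (7.16%). Of 30 calls of named genes of the family, 6 were kept in all 20 alternatives, and 420 of their 600 alternative values kept the call. Depth is unknown in TPM, and the spread of the FD libraries enters the error of every comparison.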
